A study of Mus musculus with 24 samples.

Results

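Eef2, the gene of translation elongation factor 2, was described together with its kinase gene Eef2k, 7 genes of the pathway that builds diphthamide on the factor (Dph1, Dph2, Dph3, Dph5, Dph6, Dph7 and Dnajc24) and the convertase gene Furin. The members were named by symbol. All 10 were found among the 49315 genes of the count tables, and all 10 were among the 22280 genes tested. The tables count polyadenylated RNA from 24 tumours of the mouse brain, in 8 groups of 3 tumours, at 24.7 to 48.1 M counted reads a library. Every tumour grew from CT-2A-dmEGFRvIII-Firefly Luciferase (CT-vIII), a mouse glioma line transduced with mouse EGFR variant III and firefly luciferase and placed in the right brain hemisphere. The 4 treatments were vehicle (2% MSA-PBS with 100 µg of rat IgG2a), aCD40 (an antibody to CD40, 10 to 300 µg), D2C7-IT (an immunotoxin, 0.2 µg) and D2C7-IT+aCD40. Implantation was followed on day 6 by infusion into the brain, which ran for 72 h at 0.5 µl/h and ended on day 9. Tumours were taken when the pumps were removed (day 0) or 3 days later (day 3). The sources used here do not state which tumour had which aCD40 dose, nor the strain, sex and age of the mice. The tissue was not sorted, so fewer cells of a type and less RNA per cell cannot be told apart.

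In D2C7-IT, part of Pseudomonas exotoxin is carried by an antibody fragment that binds EGFR and its variant III. After uptake, furin cleaves the exotoxin, receptors of the KDEL family carry it back to the endoplasmic reticulum, and its enzymatic part reaches the cytosol. There it attaches ADP-ribose to diphthamide, a modified histidine found in elongation factor 2, and protein synthesis stops. Diphthamide is made in steps. The Dph1 and Dph2 proteins add the first chain to the histidine, with electrons passed on by Dph3 and support from the co-chaperone Dnajc24. Dph5 methylates the intermediate, Dph7 removes a methyl group again, and Dph6 adds the last amide. Eef2k is a kinase that phosphorylates elongation factor 2 and slows elongation. The counts measure the RNA of these genes, and neither the modification nor the phosphorylation was measured.

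The sites of both modifications were located in the reference coding sequence of Eef2, because they are what the exotoxin pathway and the kinase act on. The sequences come from the GENCODE M21 transcript (GRCm38, chromosome 10, plus strand), of 2574 coding bases and 858 residues in 14 exons. The first spans chr10:81181273-81181335 in exon 12, and its capitals mark the codon of histidine 715, the residue that carries diphthamide. The second spans chr10:81177800-81177862 in exon 2, and its capitals mark the codon of threonine 57, a site of Eef2k. Positions are counted from the first methionine. Both windows hold 10 codons on each side and are reference sequence, not sequence read from the tumours.
Eef2 diphthamide histidine: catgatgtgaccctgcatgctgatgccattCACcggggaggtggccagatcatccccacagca
Eef2 kinase threonine: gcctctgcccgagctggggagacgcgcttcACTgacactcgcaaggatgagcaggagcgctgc

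In GRCm38, Eef2 lies on chromosome 10 (81176631 to 81182498, plus strand) and Eef2k on chromosome 7 (120842831 to 120907450, plus strand). Furin also lies on chromosome 7 (80388585 to 80405436, minus strand). Dph1 lies on chromosome 11 (75177643 to 75191241, minus strand), and 36% of its exon bases are shared with Ovca2 on the same strand. Dph2 lies on chromosome 4 (117888643 to 117892032, minus strand). Dph3 lies on chromosome 14 (32080566 to 32085729, minus strand), with 8.91% of its exon bases shared with Oxnad1 on the other strand. Dph5 lies on chromosome 3 (115887837 to 115934361, plus strand). Dph6 (114516416 to 114654964, minus strand), Dph7 (24962400 to 24972163, plus strand) and Dnajc24 (105966709 to 106003549, minus strand) lie on chromosome 2. Reads in bases shared on the same strand cannot be assigned to 1 gene, and the Dph1 level is uncertain for that reason. The libraries did not mark strand, so the same holds for bases shared across strands. Such bases also make up 6.14% of the exon bases of Dnajc24, 3.66% of Dph5, 1.36% of Eef2k and 1.29% of Furin.

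Levels are given as CPM, counts scaled to a library total of 1000000 with TMM-adjusted library sizes. Eef2 was the most abundant member by far, ranking 26 among the genes tested by mean CPM and 30 by CPM per kb of merged exons. Over the 12 day 0 libraries it held 391 ± 29.2 CPM per kb (SD, n = 12). The other members ran in ascending order from Dph5 (1.15 ± 0.196 CPM per kb), Dph6 (2.49 ± 0.386), Dph2 (3.75 ± 0.32), Dph1 (5.28 ± 0.649), Furin (5.70 ± 0.507), Dnajc24 (5.75 ± 0.565) and Eef2k (6.51 ± 1.18) to Dph3 (7.88 ± 0.574) and Dph7 (8.41 ± 0.648). Neighbours in the order from Dph1 to Dph7 differed by less than the sum of their SDs. The order of Dph5, Dph6 and Furin depended on the length used, as the plot of levels per length shows. Over all 24 libraries Furin held 7.55 CPM per kb of merged exons and 16.0 per kb of the principal transcript, and Dph5 held 1.30 and 6.64. The lowest single count of a member was 158, for Dnajc24.

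**Figure D1:**
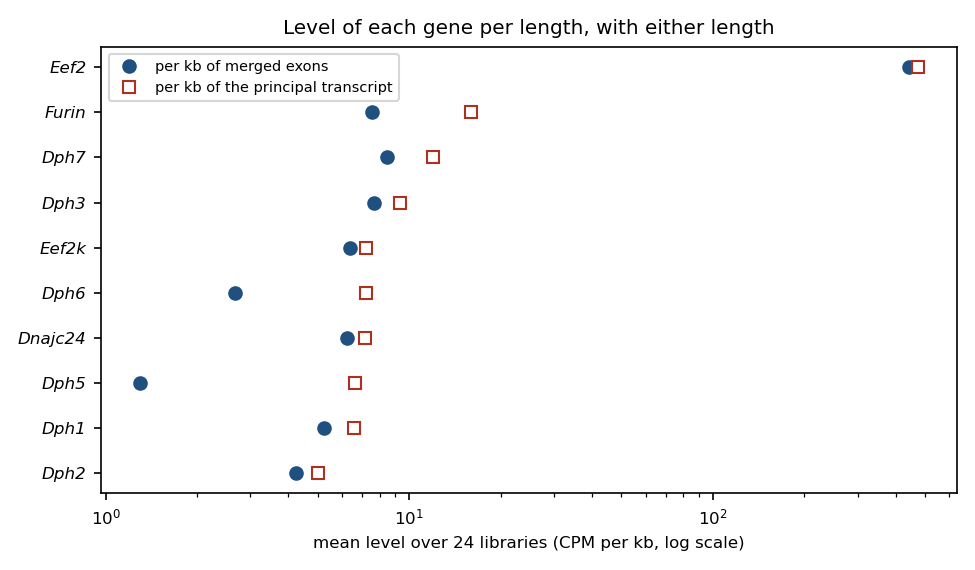
Mean level of each gene over the 24 libraries in CPM per kb (log axis), divided by the length of its merged exons (filled circles) or of its principal transcript (open squares). Eef2 stands far to the right of the other 9 genes with either length, and Dph5 moves from 1.30 to 6.64.

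Libraries of the same group were not alike at day 3. Vehicle day 3 replicates 2 and 3 and aCD40 day 3 replicate 1 stood apart from the other 21 libraries. Egfr, the gene to which reads of the mouse EGFR variant III transgene can also map, held 283 to 343 CPM in these 3 and 13.1 to 50.8 in the 21. The summed level of 7 cycling cell markers, all detected, was 1039 to 1320 CPM against 9.03 to 146. The summed level of 8 neuron markers, all detected, was 1642 to 2813 CPM against 3860 to 7057. Astrocyte markers (6 of 6 detected) summed to 1817 to 2695 CPM against 3184 to 4930. Monocyte and macrophage markers (7 of 7 detected) summed to 798 to 1880 CPM against 59.5 to 623. None of these markers was at 0 in all 3 libraries. The main day 3 results are therefore given with and without them. Without the 3, vehicle day 3 is 1 tumour, assumed in the fit to vary like the other groups, and this exclusion was chosen after the data were seen. All 3 belong to groups without D2C7-IT, so leaving them out removes tumours from that side only when groups with D2C7-IT are compared with them.

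Eef2 was nearly even at day 0. It held 1383, 1385 and 1283 CPM in vehicle, 1257, 1357 and 1363 in aCD40, 1372, 1169 and 1183 in D2C7-IT, and 1156, 1249 and 1443 in D2C7-IT+aCD40. The 4 groups overlapped, and the spread over these 12 libraries was a coefficient of variation (CV) of 7.47%. That was larger than the CV of only 7.57% of the genes tested, which were not matched to Eef2 for level. At day 3 Eef2 held 1304, 2181 and 2104 CPM in vehicle and 2497, 1459 and 1386 in aCD40. D2C7-IT held 1426, 1402 and 1367, and D2C7-IT+aCD40 held 1432, 1482 and 1527. The 3 high values were those of the 3 libraries that stood apart, and the other 9 day 3 libraries lay between 1304 and 1527.

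Furin had the widest range of the members. At day 0 it held 57.0, 44.9 and 53.7 CPM in vehicle, 52.0, 46.2 and 62.1 in aCD40, 52.4, 53.2 and 52.9 in D2C7-IT, and 53.8, 52.1 and 47.5 in D2C7-IT+aCD40. These day 0 groups overlapped in the same way as those of Eef2. At day 3 it held 43.6, 168 and 169 CPM in vehicle and 201, 49.0 and 46.8 in aCD40. It held 80.4, 52.6 and 47.3 in D2C7-IT and 59.7, 67.1 and 50.0 in D2C7-IT+aCD40. The 3 libraries that stood apart were again the only ones above 80.4 CPM. The CV of Furin was 8.89% over the day 0 libraries and 62.9% over all 24, and its highest level was 4.6 times its lowest.

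**Figure D2:**
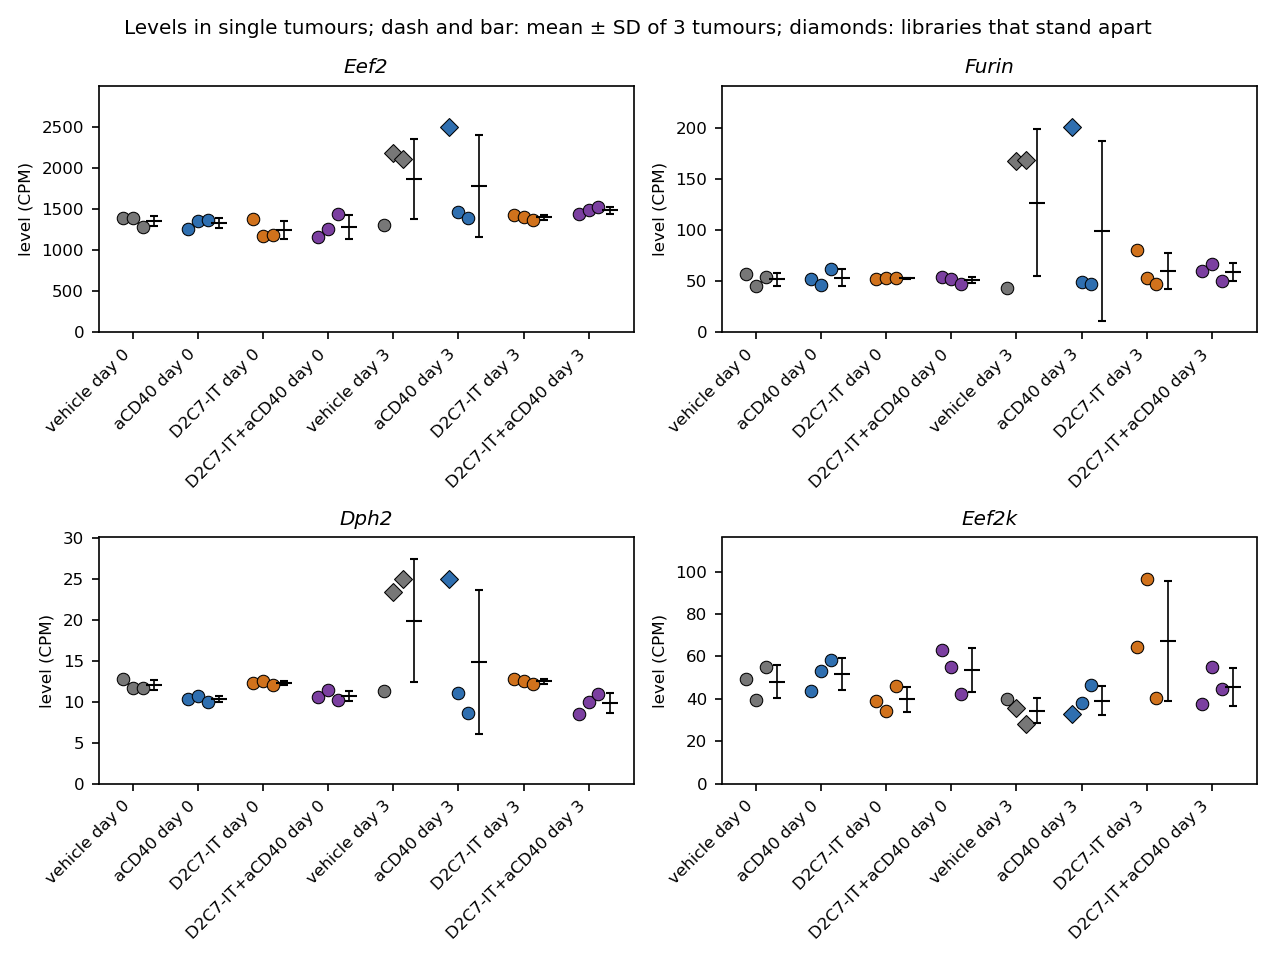
Levels of Eef2, Furin, Dph2 and Eef2k in each tumour (CPM, linear axes from 0) by treatment and day, with the mean ± SD of 3 tumours beside the points. The diamonds are the 3 libraries that stood apart; they are the highest points for Eef2 (2104 to 2497), Furin (168 to 201) and Dph2 (23.4 to 25.1) and are among the lowest for Eef2k (27.9 to 35.4).

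Dph2, which forms the first enzyme of the pathway together with Dph1, followed the same 3 libraries. At day 3 it held 11.3, 23.4 and 25.1 CPM in vehicle, 25, 11.1 and 8.60 in aCD40, 12.8, 12.5 and 12.2 in D2C7-IT, and 8.57, 10.0 and 11.0 in D2C7-IT+aCD40. Its 12 day 0 libraries lay between 9.98 and 12.8 CPM, with a median of 11.5. Its partner Dph1 was much flatter, at 15 to 18.3 CPM in the 3 libraries and 11.6 to 17.0 in the other 21. Dph5, the methyltransferase, held 15.6 to 18.7 CPM in the 3 libraries and 7.30 to 13.6 in the 21. The co-chaperone gene Dnajc24 held 12.7 to 13.4 CPM against 6.55 to 9.77. For Eef2, Furin, Dph2, Dph5 and Dnajc24, all 21 other libraries lay below the 3.

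Dph3, the electron carrier of the first step, ran the other way. It held 17.3 to 21.2 CPM in the 3 libraries and 24.9 to 33.5 in the 21, with no overlap. Eef2k held 27.9 to 35.4 CPM in the 3 libraries and 34.3 to 96.7 in the 21, of which 20 lay above the 3. Dph6, which completes diphthamide, held 24.2 to 26 CPM in the 3 libraries and 14.3 to 25 in the 21, of which 19 lay below the 3. Dph7, the demethylase, held 18.1 to 20.2 CPM in the 3 libraries and 17.3 to 22.2 in the 21. Its CV over all 24 libraries was 6.28%, against a median of 35.3% over all genes tested, and only 0.431% of the genes had a smaller one. All 10 members had a CV under the all-gene median of 23.8% at day 0, and 8 had one under the median of 35.3% over the 24 libraries. These shares and medians were taken over all genes tested, not over genes of similar level. They therefore do not show that the members were unusually even for their level. The 3 libraries were singled out by Egfr, cycling and neuron markers and not by these genes, and the comparison with the 21 is a description with no test. The part of the tissue makeup in these levels was not tested.

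**Figure D3:**
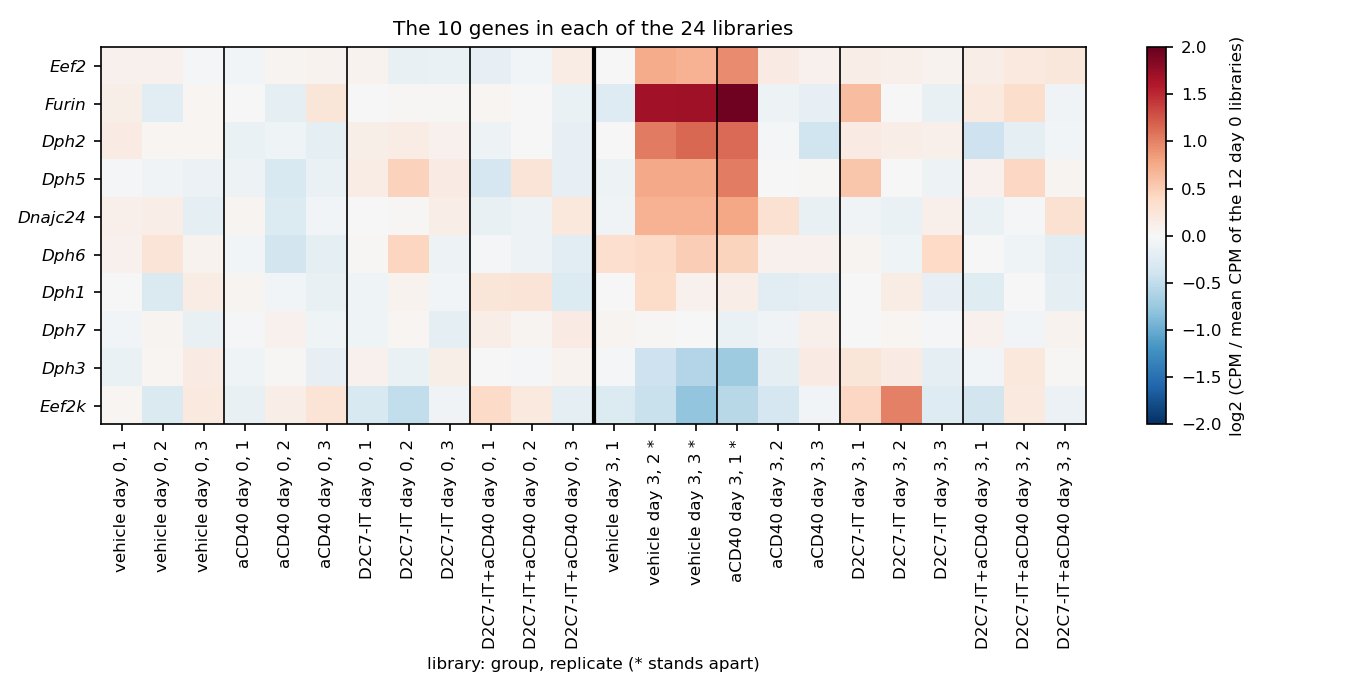
Each row is a gene and each column a library; colour gives the log2 ratio of its CPM to its mean over the 12 day 0 libraries (red higher, blue lower). The 3 starred columns are red for Eef2, Furin, Dph2, Dph5 and Dnajc24 and blue for Dph3 and Eef2k, while the Dph7 row is pale throughout.

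Set against the markers library by library, Furin was high where Egfr was high, and Dph3 was low where the neuron markers were low. Both patterns separate the 3 libraries from the 21, and because the libraries fall into these 2 clusters no correlation over all of them is given for the markers. Within the 21, Pearson r of log2 CPM was 0.35 for Furin with Egfr and 0.3 for Dph3 with the mean of the neuron markers. Over the 12 day 0 libraries these r were 0.71 and 0.0.

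**Figure D4:**
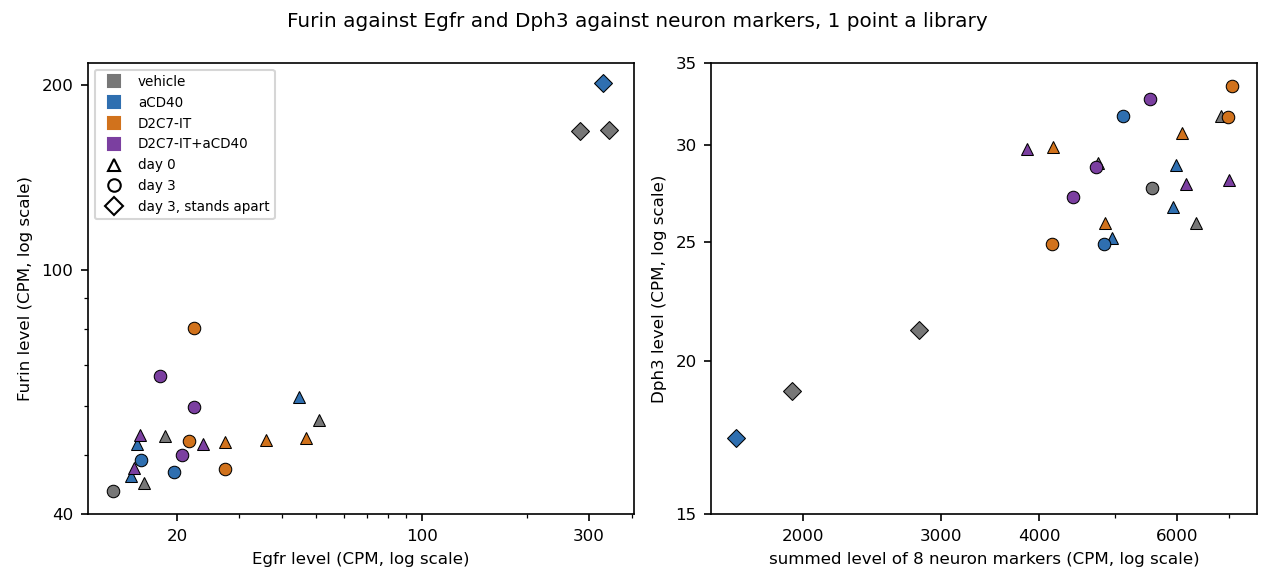
Left, Furin against Egfr; right, Dph3 against the summed level of 8 neuron markers; all axes in CPM on log scales, 1 point a library, coloured by treatment. The 3 diamonds (vehicle day 3 replicates 2 and 3, aCD40 day 3 replicate 1) lie apart in both panels, with Furin at 168 to 201 CPM and Dph3 at 17.3 to 21.2.

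The genes most like Eef2 over the 24 libraries were Rnpepl1 (Pearson r = 0.98 of log2 CPM), the ribosomal protein genes Rps3, Rpl10 and Rpl23a, and Eif3h, a subunit of initiation factor 3 (each 0.97). Within the 21 libraries their r with Eef2 ran from 0.78 for Rpl10 and Rpl23a to 0.88 for Rnpepl1. The genes most like Furin were Mgat2, an enzyme of N-glycan branching (0.99), and Ddb1, Cggbp1, Surf4 and Hdlbp (each 0.98). Surf4 is a cargo receptor of the endoplasmic reticulum. Within the 21 libraries their r with Furin ran from 0.80 for Surf4 to 0.85 for Ddb1. These likenesses were ranked on all libraries, so the 3 that stood apart weigh on the choice.

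The first question of the design was whether a treatment changed these genes against vehicle on the same day. At day 0 no member was called by edgeR at an adjusted p under 0.05 for aCD40, D2C7-IT or D2C7-IT+aCD40. The background was 0% of all genes for aCD40, 0.0808% for D2C7-IT and 0% for the combination. At an unadjusted p under 0.05, 1 member, Dph6, stood out for aCD40 and 0 for the others, against 1.36%, 4.52% and 3.03% of all genes. Dph6 held 19.7, 22.1 and 19.4 CPM in vehicle and 17.8, 14.3 and 16.3 in aCD40 at day 0. These groups did not overlap, as was the case for 2 members (Dph2 and Dph6, both lower) and 7.47% of all genes. The difference of -0.34 ± 0.16 (log2, SE) had an adjusted p of 1 in edgeR. Endothelial markers (6 of 6 detected) summed to 131 to 169 CPM in vehicle and 280 to 322 in aCD40 at day 0. They summed to 267 to 307 in D2C7-IT and 228 to 306 in the combination. Every treated group thus lay above vehicle in these sums. Dph6 did not follow them in every group. It differed from vehicle at day 0 by -0.01 ± 0.16 in D2C7-IT and -0.26 ± 0.16 in the combination (log2, SE). The part of the endothelial markers in the Dph6 values was not tested.

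Dph5 was the member whose D2C7-IT and vehicle tumours did not overlap at day 0, with 10.2, 12.7 and 10.4 CPM against 8.97, 8.79 and 8.55. Its difference of 0.34 ± 0.28 (log2, SE) had an edgeR adjusted p of 1, and 17.6% of all genes had groups without overlap in this comparison. In the combination at day 0 Dph2 and Dph6 lay below and Dph7 above every vehicle tumour, against 9.47% of all genes. The Dph7 values were 21.9, 20.7 and 22.2 CPM against 19.2, 20.7 and 17.9, touching at the digits given, with a difference of 0.16 ± 0.11 (edgeR adjusted p = 1).

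Eef2 itself differed from vehicle at day 0 by -0.03 ± 0.22 with aCD40, -0.12 ± 0.22 with D2C7-IT and -0.07 ± 0.22 with the combination (log2, SE). Furin differed by 0.04 ± 0.46, 0.03 ± 0.46 and -0.02 ± 0.46 in the same order. None of these differences exceeded its SE, and the 3 comparisons share the vehicle tumours. For comparison, the median difference of the 10 members was -0.06, 0.01 and -0.02, and that of all genes tested 0.00, -0.01 and 0.02.

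At day 3 no member was called against vehicle either, with a background of 0% for aCD40, 0% for D2C7-IT and 0.0404% for D2C7-IT+aCD40. At an unadjusted p under 0.05 the members counted 0, 5 and 4, against 1.91%, 28.2% and 24% of all genes. DESeq2 called 0 members for aCD40, 1 for D2C7-IT (Eef2k) and 2 for the combination (Dph2 and Dph6), beside 12.9% and 7.72% of all genes for the last 2 comparisons. The smallest p-value in edgeR was that of Eef2k in D2C7-IT, which held 64.2, 96.7 and 40.3 CPM against 39.7, 35.4 and 27.9 in vehicle. Every D2C7-IT tumour lay above every vehicle tumour, which held for no other member and for 13.2% of all genes in either direction. The neuron markers moved with it, at 7057, 6972 and 4155 CPM summed in D2C7-IT against 5577, 2813 and 1936 in vehicle, and their part in the difference was not tested. The difference was 0.96 ± 0.26 (log2, SE; 1.95-fold; edgeR adjusted p = 0.080). D2C7-IT replicate 2 held the highest Eef2k of all 24 libraries. Without the 3 libraries the difference was 0.77 with an adjusted p of 0.804, and 1 vehicle tumour was left. Without D2C7-IT day 3 replicate 3 it was 1.23 ± 0.23 (adjusted p = 0.0201, with 1.88% of all genes called), and without vehicle day 3 replicate 1 it was 1.08 ± 0.29 (adjusted p = 0.0129).

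For aCD40 at day 3 no member's tumours stood clear of the vehicle tumours, as 2.71% of all genes did. Furin differed there by -0.36 ± 0.46 and Eef2 by -0.07 ± 0.22 (both edgeR adjusted p = 0.998), and without the 3 libraries by 0.16 and 0.15. In the combination Dph1, Dph2 and Dph6 lay below every vehicle tumour, against 15.5% of all genes in either direction. Dph1 held 12, 14.1 and 12.4 CPM against 14.3, 18.3 and 15 in vehicle (-0.31 ± 0.17, adjusted p = 0.271, and -0.13 without the 3 libraries).

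The other members did not pass the test in edgeR at day 3 either. Dph2 differed by -0.67 ± 0.30 in D2C7-IT (edgeR adjusted p = 0.152) and by -1.02 ± 0.30 in the combination (adjusted p = 0.109). Furin differed by -1.08 ± 0.47 (adjusted p = 0.143) and -1.11 ± 0.47 (adjusted p = 0.161). Without the 3 libraries these 4 differences were 0.16, -0.16, 0.48 and 0.46. Dph6 differed by -0.51 ± 0.16 in the combination (adjusted p = 0.109) and by -0.42 without the 3 libraries. Vehicle day 3 replicate 1, the vehicle tumour outside the 3, moved these counts: without it, edgeR called 6 members for D2C7-IT (Dnajc24, Dph2, Dph3, Eef2, Eef2k and Furin) and 5 for the combination (Dnajc24, Dph2, Dph3, Dph6 and Furin). That fit also called 35.7% and 30.1% of all genes in these comparisons. Without aCD40 day 3 replicate 1, it called Dph2 (-1.01 ± 0.24) and Furin (-1.40 ± 0.38) for aCD40 against vehicle, both at an adjusted p of 0.0445, with 5.98% of all genes called.

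The groups with D2C7-IT were then compared with the groups without it, 6 tumours against 6 on each day. Each side was the mean of its group means in the fit. At day 0 no member was called by edgeR (background 0.0314%), and 0 members had an unadjusted p under 0.05 against 3.50% of all genes. The differences ran from -0.11 ± 0.18 for Eef2k to 0.23 ± 0.20 for Dph5. Eef2 differed by -0.08 ± 0.15 and Dph7 by 0.04 ± 0.08.

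At day 3, 2 of the 10 members were called, which is close to the background of 18.2% of all genes. Eef2k was higher, at 37.3 to 96.7 CPM with a median of 49.8 in the groups with toxin and 27.9 to 46.3 with a median of 36.8 in those without. Its difference was 0.59 ± 0.18 (log2, SE; 1.51-fold; edgeR adjusted p = 0.0322). Dph2 was lower, at 8.57 to 12.8 CPM with a median of 11.6 against 8.60 to 25.1 with a median of 17.3. Its difference was -0.64 ± 0.21 (edgeR adjusted p = 0.0452). At an unadjusted p under 0.05, 7 of the 10 members stood out, against 35.2% of all genes. No member separated the 2 sets of 6 tumours without overlap, as 1.77% of all genes did.

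Neither call held without the 3 libraries. All 3 are in groups without toxin, with the highest Dph2 levels and some of the lowest Eef2k levels. Leaving them out therefore took tumours from only 1 side of the comparison. Group means weigh equally there, so vehicle replicate 1 alone weighed as much as aCD40 replicates 2 and 3 together. Eef2k then differed by 0.45 ± 0.24 (adjusted p = 0.433) and Dph2 by 0.08 ± 0.11 (adjusted p = 0.747), and no gene of 23433 tested was called by edgeR, against 3057 (13% of them) and 1 member, Furin, at an unadjusted p under 0.05. The Dph2 call was also lost in 9 of 12 fits that each left out 1 library, and the Eef2k call in 7. Without aCD40 day 3 replicate 1, Dph2 differed by -0.33 (adjusted p = 0.205) and Eef2k by 0.54 (0.113). Without vehicle day 3 replicate 2 the values were -0.56 (0.125) and 0.61 (0.0733), and without replicate 3 they were -0.55 (0.129) and 0.52 (0.0958). Without D2C7-IT replicate 1 they were -0.64 (0.0813) and 0.61 (0.0617), and without replicate 2 they were -0.63 (0.0877) and 0.42 (0.103). Leaving out D2C7-IT replicate 3 or D2C7-IT+aCD40 replicate 1 lost Dph2 alone (adjusted p = 0.0694 and 0.091), while D2C7-IT+aCD40 replicate 2 (0.0841 and 0.0832) and replicate 3 (0.0692 and 0.0598) each lost both.

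Members that were not called at day 3 differed in the same comparison as follows, adjusted p by edgeR. Furin differed by -0.91 ± 0.33 (adjusted p = 0.0603) and by 0.39 ± 0.15 without the 3 libraries (adjusted p = 0.302), so its sign turned. Eef2 differed by -0.34 ± 0.15 (0.122) and by 0.09 ± 0.09 without them (0.691). Dnajc24 differed by -0.40 ± 0.16 (0.0854) and by 0.01 ± 0.15 without them (0.986). Dph3, the member that was low in the 3 libraries, differed by 0.34 ± 0.13 (0.076) and by 0.10 ± 0.11 without them (0.724). Dph6 differed by -0.30 ± 0.11 (0.0696) and kept its sign at -0.19 ± 0.13 (0.539). Dph5 differed by -0.29 ± 0.20 (0.303) and 0.24 ± 0.17 (0.546), Dph1 by -0.11 ± 0.12 (0.523) and 0.03 ± 0.13 (0.928), and Dph7 by 0.02 ± 0.08 (0.884) and -0.01 ± 0.08 (0.968). At day 3 the neuron markers summed to 1642 to 5577 CPM over the groups without toxin and 4155 to 7057 over those with it. The cycling markers summed to 15.2 to 1320 and 29.6 to 72.7. The low neuron sums and high cycling sums were those of the 3 libraries. Vehicle replicate 1 and aCD40 replicates 2 and 3 held 5577, 4844 and 5114 CPM of neuron markers. Their cycling sums were 15.2, 45.8 and 25.5 CPM. The part of the markers in these differences was not tested.

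**Figure D5:**
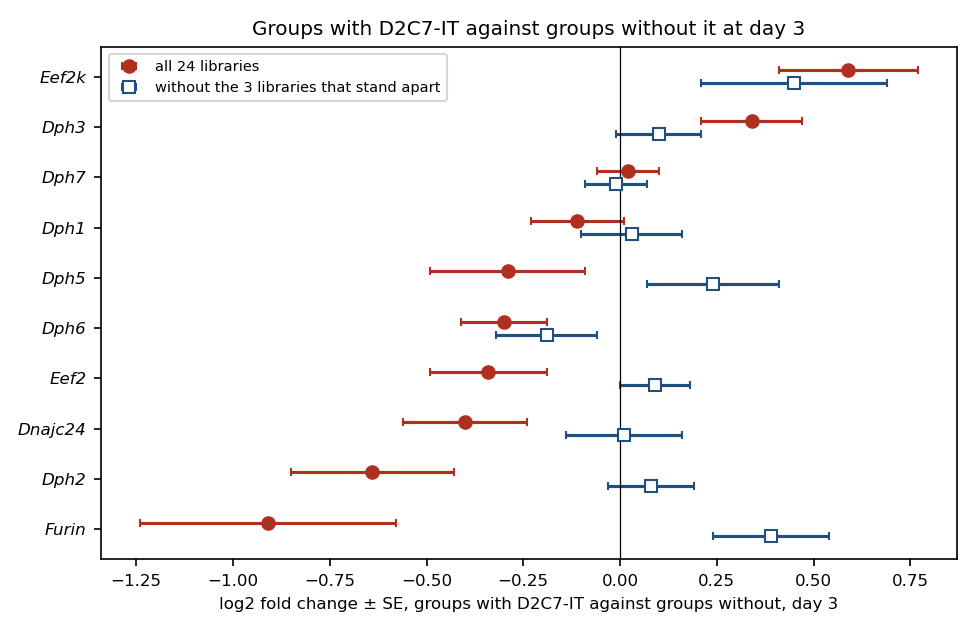
Log2 fold change ± SE of each member between the groups with and without D2C7-IT at day 3, in all 24 libraries (filled circles) and without the 3 libraries that stood apart (open squares). Furin moves from -0.91 to 0.39 and Dph2 from -0.64 to 0.08, while Eef2k stays positive, at 0.59 and 0.45.

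The change from day 0 to day 3 was tested within each treatment. No member was called by edgeR in any of the 4 (background 0% for vehicle, 0.0583% for aCD40, 0.00449% for D2C7-IT and 0% for the combination). At an unadjusted p under 0.05 the counts of members were 4, 2, 1 and 0, against 30.2%, 11.6%, 3.51% and 4.66% of all genes. Between days Eef2, Dph5 and Dph6 were without overlap in aCD40 and higher at day 3, against 10.9% of all genes, and Dph6 in vehicle, against 13.1%. Eef2 in aCD40 differed by 0.43 ± 0.22 (adjusted p = 0.426), and by 0.11 ± 0.11 without the 3 libraries. Without them Dph5 and Dph6 in aCD40 differed by 0.19 and 0.29, and Dph6 in vehicle by 0.19. In vehicle Furin differed by 1.29 ± 0.47 (adjusted p = 0.109) and Eef2 by 0.46 ± 0.22 (0.159). Without vehicle day 3 replicate 1, 6 members were called (Dnajc24, Dph2, Dph3, Dph5, Eef2 and Furin) together with 41.1% of all genes, and Furin then differed by 1.70 ± 0.42 (adjusted p = 0.00921). Without the 3 libraries the vehicle differences were -0.26 for Furin and -0.06 for Eef2. In D2C7-IT, where no library stood apart, Eef2k differed by 0.76 ± 0.26 (unadjusted p = 0.00823, adjusted p = 1), Eef2 by 0.17 ± 0.22 and Furin by 0.19 ± 0.46.

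The difference of each treatment effect between the days called no member (edgeR background 0% in all 3 treatments). At an unadjusted p under 0.05 the counts of members were 0 for aCD40, 1 for D2C7-IT and 0 for the combination, against 1.22%, 17.6% and 8.05% of all genes. The smallest p-value was that of Eef2k in D2C7-IT, at 1.24 ± 0.36 (edgeR adjusted p = 0.276). Without vehicle day 3 replicate 1 it was 1.36 ± 0.39 (adjusted p = 0.0411, with 16.1% of all genes called), and without the 3 libraries 1.04 (adjusted p = 1). The combination was also set against each single agent and against the sum of both on the log2 scale. No member was called in any of these comparisons at either day by edgeR, nor was any other gene (edgeR background 0%). DESeq2 called no member either, and its share of all genes called is not given here. At an unadjusted p under 0.05, 0 members stood out against aCD40 (0.884% of all genes at day 0 and 11.1% at day 3). Against D2C7-IT it was 0 at day 0 (2.77%) and 1 at day 3 (2.44%), and against the sum it was 0 at both days (1.62% and 1.13%). The 1 member was Eef2k, with 37.3, 55.2 and 44.4 CPM in the combination against 64.2, 96.7 and 40.3 in D2C7-IT. These groups overlapped, and the difference of -0.55 ± 0.25 had an adjusted p of 1. Eef2 (1432, 1482 and 1527 CPM against 1426, 1402 and 1367) lay above and Dph2 below D2C7-IT without overlap at day 3, as 11.6% of all genes lay apart in either direction. The Eef2 difference was 0.08 ± 0.22.

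Other genes of the pathways were read from lists of elongation factors, regulators of elongation factor 2, convertases and the route of the toxin, in the same comparison of 6 against 6 tumours. These lists were drawn up with earlier results of these data known. At day 0 edgeR called 0 members of any list, and the smallest p-value was that of the kinase gene Rps6kb2 (-0.16 ± 0.08, unadjusted p = 0.0544, adjusted p = 1). At day 3 it called 6 of 11 elongation factor genes, all lower in the groups with toxin, where 18.2% of all genes were called and 2914 of those 4052 were lower, with a list median of -0.63 against 0.00 over all genes. They were Eef1b2 (-1.03 ± 0.25, adjusted p = 0.0188), Eef1g (-0.97 ± 0.26), Eef1d (-0.64 ± 0.19), Eef1a1 (-0.71 ± 0.22), Eif5a (-0.74 ± 0.24) and Tsfm (-0.63 ± 0.21). The product of Eef1a1 delivers aminoacyl-tRNA to the ribosome. Without the 3 libraries the list median was 0.05, against 0.03 over all genes.

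Of 16 genes on the route of the toxin, 10 were called lower and 0 higher at day 3, with a median of -0.71, beside the same 18.2% of all genes called. They include the target Egfr (-2.87 ± 0.72, edgeR adjusted p = 0.0195), the KDEL receptor genes Kdelr1 (-0.52 ± 0.13) and Kdelr2 (-1.14 ± 0.29), and the translocon genes Sec61a1 (-0.92 ± 0.29), Sec61b (-1.05 ± 0.29) and Sec61g (-0.57 ± 0.18). The disulfide isomerase genes Pdia3 (-1 ± 0.28) and P4hb (-1.16 ± 0.34) and the export genes Derl1 (-0.35 ± 0.12) and Derl3 (-1.04 ± 0.28) complete the 10. Without the 3 libraries the median was 0.03 and Egfr differed by 0.54 ± 0.40. The 3 were singled out by high Egfr, among other markers, and all lie in groups without toxin. The change in the Egfr difference therefore follows from that choice and is no separate result.

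Of 14 regulators, edgeR called none at day 3. There 8 had positive and 6 negative differences, with a median of 0.07, and -0.03 without the 3 libraries. Among them, Eef2kmt, a methyltransferase of elongation factor 2, differed by -0.38 ± 0.20 (edgeR adjusted p = 0.181) and the kinase gene Rps6ka1 by -0.51 ± 0.27 (adjusted p = 0.187). Their differences were 0.18 and 0.19 without the 3 libraries. Of 8 convertases related to furin, Pcsk4 was called higher (0.86 ± 0.21, adjusted p = 0.0192) and Mbtps1 lower (-0.34 ± 0.11, 0.0366), beside the 18.2% of all genes. The list median was 0.48, and 0.04 without the 3 libraries. Pcsk5 had the next smallest p (0.95 ± 0.41, adjusted p = 0.107, and 0.25 without the 3 libraries). Pcsk4 held 9.47 to 16.2 CPM in the groups with toxin and 4.62 to 9.30 in those without, with no overlap, as for 1.77% of all genes. Without the 3 libraries it differed by 0.59 ± 0.25 (adjusted p = 0.331) and Mbtps1 by -0.12 ± 0.10 (0.641). Ovca2, which shares exon bases with Dph1, differed by 0.17 ± 0.18 (adjusted p = 0.518) and by 0.21 without the 3 libraries, and the cytochrome b5 reductase gene Cyb5r1 by 0.06 ± 0.22 (0.871) and, without the 3 libraries, by 0.61 ± 0.21 (0.248).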

How the data were processed

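RNA of 24 tumours was read from 6 deposited tables of 36 columns, 12 of them copies of another column with 0 differences. The authors deposited raw counts per Ensembl gene. Per the submitters' processing notes the tools were STAR 2.5.2b, Trimmomatic 0.36, Subread 1.5.2 (featureCounts) and bcl2fastq 2.17, and the build was GRCm38. The sources used here state neither the annotation release nor whether counting used strand. GENCODE M21 named 49056 of 49315 genes.

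The fit used edgeR 4.0.16 in R 4.3.3, with filterByExpr, TMM scaling and 8 group means over 24 libraries (robust quasi-likelihood F test, 16 residual degrees of freedom). A gene was called at an adjusted p (Benjamini-Hochberg, all genes tested) under 0.05. The script was tested on simulated counts with less spread than these data and no libraries that stand apart. That test therefore does not give the error rates in these data. Log2 CPM for the nearest genes used a prior count of 2, and marker sums used unscaled totals. Alternatives included DESeq2 1.42.0.

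The text names all members, Egfr, the called members and up to 3 genes of smallest p in each list in the toxin comparison, and the 5 genes most correlated with Eef2 and with Furin, predicted names aside. One gene that this rule names is not reported here. Members and lists were chosen with earlier results of these data known. The labels give replicates as separate tumours. Replicates differed by at least 31.21 in chi-square per degree of freedom, so none repeats a library.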

Additional observations from a re-analysis of the deposited data

How the results depend on the processing

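The member count at day 3 between groups with and without toxin was the result most open to change. It was 2 in the reported fit, 6 with DESeq2 and 1 with no filter on low counts. With only the groups compared it was 0, and with the replicate block 0. All genes called in these fits numbered 4052, 5539, 3015, 9 and 2843. These were 18.2%, 24.9%, 7.77%, 0.0417% and 12.8% of the genes each fit tested. The calls of Dph2 and Eef2k did not hold without the 3 libraries that stood apart, where vehicle day 3 was 1 tumour. DESeq2 also called 1 member for D2C7-IT against vehicle at day 3 (Eef2k) and 2 for the combination (Dph2 and Dph6), beside 12.9% and 7.72% of all genes. DESeq2 size factors in edgeR and no robust spread each kept the count of 2.

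Leaving out 1 library at a time gave 0 to 7 members for that comparison. The fit with 7 called 39.5% of all genes, and those with 0 called 1.16% to 5.41%. At day 3 it gave 0 to 6 for D2C7-IT against vehicle, 0 to 5 for the combination and 0 to 2 for aCD40. The fits with the highest of these counts called 35.7%, 30.1% and 5.98% of all genes. It gave 0 to 6 for vehicle between days and 0 to 1 for the difference of the D2C7-IT effect between days. Here the fits with the highest counts called 41.1% and 16.1% of all genes. Counts of other comparisons stayed at 0.

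Of 210 log2 differences (10 members in 21 comparisons), 110 changed sign in some alternative, in 246 of 3150 values, and 12 of these had an unadjusted p under 0.05 on either side. All 12 arose without the 3 libraries. For D2C7-IT against vehicle at day 3 Dnajc24 turned to 0.05, Dph2 to 0.16 and Furin to 0.48, and for the combination Furin turned to 0.46. For toxin against no toxin at day 3 Dnajc24 turned to 0.01, Dph2 to 0.08, Furin to 0.39 and Eef2 to 0.09. For vehicle between days Dph5 turned to -0.04, Dph2 to -0.11, Furin to -0.26 and Eef2 to -0.06. The cause was not tested. None of 80 group levels moved by over 1 SD with DESeq2 size factors.

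Replicate numbers did not pair the tumours. Same-numbered libraries of different groups had a median correlation of -0.0186 over 84 pairs (lowest -0.913, highest 0.509), and 5 of 24 libraries were closest to their own number. The block moved the adjusted p of Dph2 to 0.0682 and of Eef2k to 0.0517.

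Each group held 3 tumours, and the lowest member count was 158 reads, for Dnajc24; what part depth had in the calls was not tested.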
